A study of Mus musculus with 11 samples.

Results

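Voltage-gated calcium channels open when the cell membrane depolarizes and let calcium enter the cell, and in arterial smooth muscle this entry is a main trigger of contraction. A channel is built around a pore-forming α1 subunit, which sets whether the current is of the L-type (Cacna1c, Cacna1d, Cacna1s) or of the T-type (Cacna1g, Cacna1h). In high-voltage-activated channels such as the L-type the pore is joined by an intracellular β subunit (Cacnb1 to Cacnb4) and by an extracellular α2δ subunit (Cacna2d1), which promote its traffic to the membrane and tune its gating.

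These 10 genes were followed in the aorta of old mice after a dietary nitrate supplementation. Members were the probes whose gene name in the array files was 1 of these 10 symbols, which gave 16 probes among the 55681 of the array and 10 of its 36413 gene names. The nitrate group held 5 male C57BL/6 mice, 20 months old, whose drinking water held sodium nitrate at 1 g/L over 8 weeks. The control group held 6 C57BL/6 mice of 20 months whose labels give the agent as control and call them reanalyses of earlier samples, and the methods give sodium chloride at an equal concentration for the controls. RNA of the descending aorta of each mouse, flushed and cleaned of surrounding fat, was hybridised to 1 one-color array; the sources used here do not say if the groups were housed in parallel. The comparison asks whether RNA of the channel subunits differed between nitrate-treated and control aortas. In a whole vessel wall, fewer cells of a type and less RNA per cell cannot be told apart.

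The 75th percentile of the spot signal ran from 213 to 289 over the 11 arrays, and no array had a saturated spot of a gene probe. The 11 arrays lay on 3 slides, each with mice of both groups. All 6 controls and none of the nitrate mice were in the third column of their slide, so this column and the treatment cannot be told apart. The array of control 1 correlated least with the rest (mean r = 0.985, against at least 0.990 for each other array). All 9 smooth muscle markers, which the labelled tissue should hold, were detected. Heart muscle RNA varied widely between mice of 1 group, from a mean log2 signal of 7.42 to 11.87 over 9 detected markers in the nitrate group and from 7.03 to 11.32 in the controls. Of these 9 markers 8 were higher in the nitrate group, with a median difference of 0.77, and 1 was called, the cardiac calcium release channel Ryr2 (difference 0.48, adjusted p = 0.194). The defining markers Myh6, the α-myosin heavy chain, and Tnni3, the cardiac troponin I, differed by 1.64 (SE 1.29) and 0.80 (SE 1.08). The summed linear signal of the list was 4148 to 74254 in the nitrate mice and 3129 to 47282 in the controls, and its part in the channel values was not tested.

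Every probe is 60 bases long, and its position is the one given with the arrays for mouse build mm9. The position of Cacnb2 probe 2 spans 3174 bases of the genome, and that of every other member probe spans 60. The sequences below are the opening 30 bases, 5′ to 3′, of the probes on which the results turn, namely the α2δ pair, both L-type pairs and the single probes of Cacna1c and Cacnb4. Where in the gene model they lie (coding exon or UTR) was not analysed here.
Cacna2d1 probe 1 (chr5:15880152-15880211, plus strand): ccttattatgttctctggacacttttgtgg
Cacna2d1 probe 2 (chr5:15876550-15876609, plus strand): agttacattaaataggagtcggttgaagaa
Cacna1s probe 1 (chr1:138016020-138016079, plus strand): cacaaaggcctgatcggtgccagggtctgt
Cacna1s probe 2 (chr1:138015618-138015677, plus strand): cagatggaaccagaggaagtcgaggtggca
Cacna1d probe 1 (chr14:30855259-30855318, minus strand): gaccctgggcgagaggaagaggacctggca
Cacna1d probe 2 (chr14:30853773-30853832, minus strand): acacctggggacagttagctttggaatcgt
Cacnb4 probe (chr2:52289964-52290023, minus strand): cgacataggctttgaggctgccgaaacaaa
Cacna1c probe (chr6:118544079-118544138, minus strand): tgacgcctgcgacatgacaatagaggagat

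Values are log2 signals after quantile normalization, and a difference is the nitrate mean minus the control mean on that scale. Detection required, on 5 or more arrays of 1 group, a spot that the scanner software had both found and marked well above background. By this rule 10 of the 16 probes, of 7 genes, were detected: 1 each of Cacna1d, Cacna1s, Cacnb1 and Cacnb3, and both probes of Cacna1g, Cacnb2 and Cacna2d1. Cacna1c, Cacna1h and Cacnb4 had no detected probe, and neither had Cacna1d probe 2 and Cacna1s probe 2. A probe was called, as in the methods, at an unadjusted limma p under 0.05 with a fold change above 1.2.

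Of the 10 detected probes 2 were called, Cacna2d1 probe 1 higher and Cacna1s probe 1 lower in the nitrate group, while 9.00% of all 23632 detected probes were called. Cacna1s probe 1 entered the test through the control group alone, where it was high, so its count is a description. Of the 9 member probes detected on all 11 arrays, 1 was called (Cacna2d1 probe 1), where 8.51% of the 19159 such probes were called. After Benjamini-Hochberg adjustment over all detected probes, limma called 0 of the 10 at an adjusted p under 0.05 (2 at an unadjusted p under 0.05), with a smallest adjusted p of 0.255, and 0.0127% of all detected probes passed. The detected probes were 5 higher and 5 lower, with a median difference of 0.02, against 0.01 over all detected probes. Groups did not overlap for 1 of the 10, and for 2.75% of all detected probes.

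**Figure D1:**
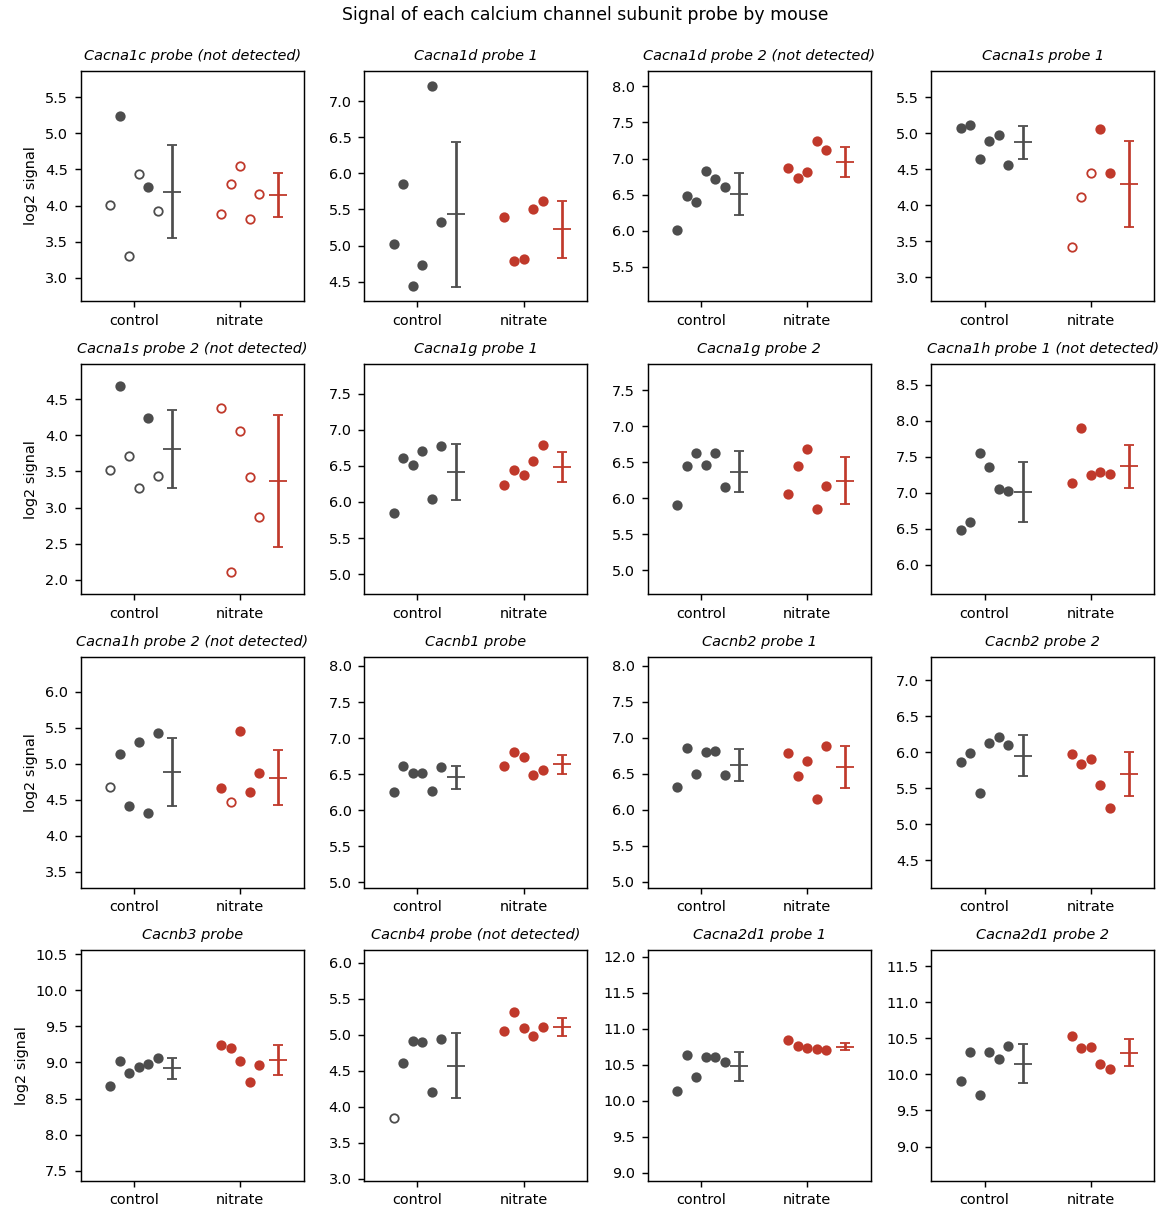
Log2 signal (y axis, each panel spans a range of equal length) of each of the 16 probes in the 6 control mice (grey) and the 5 nitrate mice (red), with the mean ± SD beside the points. Open points lie on arrays where the probe was not well above background. The nitrate mice lie above every control for Cacna2d1 probe 1 and Cacnb4, and 3 of the 5 nitrate points of Cacna1s probe 1 are open.

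The α2δ subunit gave the called difference with no overlap between the groups. Cacna2d1 encodes the α2δ-1 protein, which anchors on the outer face of the membrane and is the target of gabapentin. Its probe 1 read 10.84, 10.76, 10.74, 10.71 and 10.71 in nitrate mice 1 to 5, and 10.14 at the lowest, 10.58 at the median and 10.64 at the highest in the controls. Each nitrate mouse lay above each control, and the nitrate values were tightly grouped (10.75 ± 0.05, SD, n = 5) beside the controls (10.48 ± 0.20, SD, n = 6). The difference was 0.27 (SE 0.09, 95% interval 0.07 to 0.48), a 1.21-fold higher signal. Its limma p was 0.0130 (adjusted p = 0.255), and the two-sided exact permutation p was 0.00866.

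Within slides 1 to 3 the difference was 0.41, 0.16 and 0.24, and with slide as a block it was 0.29. The fold of 1.21 is close to the limit of 1.2. Leaving out control 1, control 3 or nitrate 1 brought the difference to 0.21, 0.25 and 0.25, below the fold limit, although the limma p then remained at 0.0134, 0.0293 and 0.0326. With the normexp background correction in place of that of the scanner software, the difference was 0.25 and again below the fold limit. Smooth muscle markers stood on the same side, with 8 of 9 higher in the nitrate group, a median difference of 0.15 and 1 called (Lmod1, an actin-nucleating leiomodin, 0.31). Smtn, the smooth muscle protein smoothelin, also lay higher in each nitrate mouse than in each control, but was not called. Its difference was 0.26 (SE 0.12, limma p = 0.0474, adjusted p = 0.342, exact permutation p = 0.00433). The lowest control was control 1 at 14.80, and the highest control reached 15.46, against 15.49 in the lowest nitrate mouse. The summed linear signal of the smooth muscle markers was 679232 to 712510 in the nitrate mice and 541389 to 708497 in the controls. Of the defining markers, Myh11, the smooth muscle myosin heavy chain, differed by 0.15 and Acta2, the smooth muscle actin, by 0.03. Adipocyte markers stood on the other side, with 8 of 8 lower, 4 of them called, and a summed signal of 240741 to 311836 against 311158 to 432052. The part of both marker groups in the Cacna2d1 difference was not tested.

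The other Cacna2d1 probe, 3602 bases away, read 10.53, 10.37, 10.38, 10.15 and 10.08 in the nitrate mice, and 9.72, 10.27 and 10.40 at the lowest, median and highest control. The groups overlapped, with nitrate 1 above every control and the other 4 nitrate mice inside the control range. Its difference was 0.16 (95% interval -0.13 to 0.45; limma p = 0.265, exact permutation p = 0.320), and without control 3 it was 0.070. The responses of both probes differed by 0.12, less than the spread between mice (two-sided exact permutation p = 0.225, adjusted p = 0.516 over 6 pairs). The mean of both probes per mouse was 0.22 higher in the nitrate group, with an exact permutation p of 0.0887, so that the call was not kept at the level of the gene.

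Among the L-type pores, the detected probe of Cacna1s lay near the background, and on most nitrate arrays it did not clear it. Cacna1s encodes the pore of the skeletal muscle L-type channel, the voltage sensor of excitation-contraction coupling there. Probe 1 read 3.42, 4.11, 4.45, 5.06 and 4.45 in nitrate mice 1 to 5, and 4.55 at the lowest, 4.93 at the median and 5.12 at the highest in the controls. Nitrate 4 lay inside the control range and the other 4 nitrate mice lay below it. The difference was -0.57 (SE 0.23), given as measured, with an adjusted p of 0.309 in limma.

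The probe was well above background on all 6 control arrays but on only 2 of 5 nitrate arrays (nitrate 4 and nitrate 5), so it met the detection rule through the control group, where it was high, and its call is no test of a difference. Within slides 1 to 3 the difference was -1.33, -0.27 and -0.05, and with slide as a block it was -0.58. Leaving out any of nitrate 1, nitrate 2, control 1, control 2 or control 5 ended the call, at -0.36, -0.53, -0.54, -0.53 and -0.55. With the normexp background correction the difference was -0.15 and was not called.

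Of 15 skeletal muscle markers 9 were detected, with 1 called, Atp2a1, the fast-twitch calcium pump, 0.29 higher in the nitrate group. Of the 9 markers 7 were higher, with a median difference of 0.14. Their summed signal was 9459 to 13936 in the nitrate mice and 7176 to 12189 in the controls, most of it from Acta1, and without Acta1 it was 679 to 866 and 620 to 806. Of the defining markers, Acta1, the skeletal actin, differed by 0.33, and Ckm, the muscle creatine kinase, by 0.34 with well-above-background signals in 3 of 5 and 5 of 6 mice. Ckm was high in nitrate 4 (7.18), nitrate 5 (5.97) and control 1 (7.20), the mice in which the heart marker Myh6 was highest (14.64, 12.32 and 14.05). The fast myosins Myh1, Myh2 and Myh4 and the calcium release channel Ryr1, which Cacna1s gates in skeletal muscle, were not well above background on any of the 11 arrays. The part of skeletal muscle RNA in the Cacna1s signal was not tested. Cacna1s probe 2, 402 bases upstream, was not well above background on any nitrate array and was so on 2 of 6 control arrays, with measured means of 3.37 ± 0.92 (SD, n = 5) and 3.81 ± 0.54 (SD, n = 6). No fold is given for it.

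**Figure D2:**
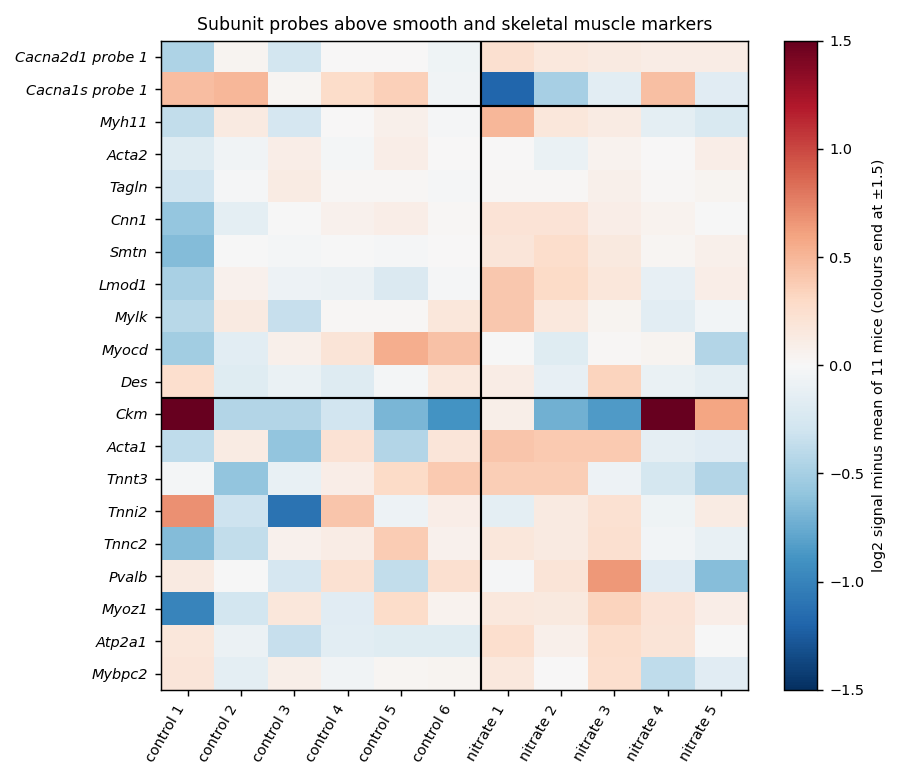
Log2 signal of Cacna2d1 probe 1, Cacna1s probe 1, the 9 smooth muscle markers and the 9 detected skeletal muscle markers (y axis) in each of the 11 mice (x axis), as the difference from the mean of the 11 mice (color, red higher and blue lower, in log2 units). Cacna2d1 probe 1 and most smooth muscle markers are lowest in control 1, and Cacna1s probe 1 is lowest in nitrate 1.

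Cacna1c, the pore of the L-type channel of arterial smooth muscle and heart, lay at the background with its single probe. It was not well above background on any of the 5 nitrate arrays and was so on 2 of 6 control arrays, although its spot was found on every array. The measured means were 4.14 ± 0.31 (SD, n = 5) and 4.19 ± 0.64 (SD, n = 6), both near the background, and no fold is given. A difference in Cacna1c was not detectable with this probe.

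Cacna1d encodes a second L-type pore, which opens at more negative voltages than that of Cacna1c and is known from sinoatrial pacemaking and hormone secretion. Its probes, 1486 bases apart, pointed in opposite directions. Probe 1, the detected one, was 0.21 lower in the nitrate group (5.22 ± 0.40, SD, n = 5, against 5.43 ± 1.00, SD, n = 6; 95% interval -1.13 to 0.71; exact permutation p = 0.740). The wide spread of the controls came from control 5 at 7.22, against 4.44 to 5.86 in the other controls, and without control 5 the difference turned to 0.15. With all mice kept, the difference within slides 1 to 3 was -0.35, -0.22 and -0.26, and with slide as a block it was -0.29. Control 5 lay on slide 3.

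Probe 2 of Cacna1d read 6.87, 6.73, 6.82, 7.24 and 7.11 in the nitrate mice, and 6.00, 6.54 and 6.83 at the lowest, median and highest control. Here 3 of the 5 nitrate mice lay above every control. Its difference of 0.45 (SE 0.15, 95% interval 0.12 to 0.78) had a limma p of 0.0129 in the fit over all probes and an exact permutation p of 0.0152. Within slides it was 0.56, 0.10 and 0.62, and 0.47 with slide as a block. With the normexp background correction it was 0.25, below the fold limit. This probe cleared the background on all 11 arrays, but the software found its spot on only 4 of 5 and 4 of 6, which kept it outside the detection rule. The responses of both probes differed by -0.66 (exact permutation p = 0.169, adjusted p = 0.516 over 6 pairs), so that a difference between the probes was not shown either.

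The T-type pores, which open near the resting potential, were not called with any of 4 probes. Cacna1g was detected with both probes. Probe 1 (chr11:94269863-94269922) ranged from 6.24 to 6.79 in the nitrate mice and from 5.84 to 6.78 in the controls, with a difference of 0.07 (95% interval -0.31 to 0.45; exact permutation p = 0.727). Probe 2 (chr11:94270459-94270518), 596 bases away, ranged from 5.85 to 6.68 and from 5.90 to 6.63, with a difference of -0.13 (95% interval -0.50 to 0.24; exact permutation p = 0.485). The intervals leave room for changes of either sign up to about the fold limit and beyond, and the groups overlapped almost completely.

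Neither Cacna1h probe met the detection rule, and both are 58583 bases apart on mm9, the widest pair. Probe 1 (chr17:25511235-25511294) cleared the background on all 11 arrays, with its spot found on 3 of 5 and 3 of 6. It read 7.14, 7.90, 7.24, 7.30 and 7.26 in the nitrate mice and 6.49 to 7.56 in the controls, a difference of 0.35 (95% interval -0.12 to 0.82; exact permutation p = 0.160), and without nitrate 2 it was 0.22. Probe 2 (chr17:25569818-25569877) was well above background on 4 of 5 and 5 of 6 arrays and differed by -0.07 (95% interval -0.62 to 0.48; exact permutation p = 0.777).

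The β subunits bind the pore from the cytoplasm, and none of the 4 detected β probes was called. Cacnb1, the β1 subunit best known from skeletal muscle (chr11:97866536-97866595), read 6.61, 6.81, 6.73, 6.48 and 6.55 in the nitrate mice, and 6.25, 6.52 and 6.61 at the lowest, median and highest control. The groups overlapped, with 3 nitrate mice above every control. The difference was 0.18 (95% interval -0.02 to 0.38; limma p = 0.0750, exact permutation p = 0.0952), and the sign was the same within each slide (0.28, 0.18 and 0.12; 0.20 with slide as a block).

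Cacnb2 encodes the main β subunit of the heart, and both of its probes overlapped between the groups. Probe 1 (chr2:14907912-14907971) differed by -0.03 (95% interval -0.34 to 0.28; exact permutation p = 0.851). Probe 2, whose 60 bases span 3174 bases of the genome (chr2:14882385-14885558) and so cross an intron, ranged from 5.23 to 5.97 in the nitrate mice and from 5.43 to 6.21 in the controls. Its difference was -0.25 (95% interval -0.61 to 0.10; exact permutation p = 0.184). Without control 3, the lowest control, it was -0.36 and past both limits of a call, and without nitrate 5, the lowest nitrate mouse, it was -0.14.

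Cacnb3, the β3 subunit, found in brain and smooth muscle (chr15:98474610-98474669), read 9.25, 9.19, 9.02, 8.73 and 8.97 in the nitrate mice, and 8.67, 8.95 and 9.06 at the lowest, median and highest control. Nitrate 1 and nitrate 2 lay above the controls and the other nitrate mice within them. The difference was 0.12 (95% interval -0.11 to 0.34; exact permutation p = 0.297).

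Cacnb4, a β subunit known from neurons, fell outside the detection rule and lay near the background, without overlap between the groups. It read 5.05, 5.31, 5.09, 4.98 and 5.10 in the nitrate mice, and 3.84, 4.76 and 4.94 at the lowest, median and highest control. Each nitrate mouse lay above each control. The difference was 0.54 (SE 0.20, 95% interval 0.09 to 0.98; limma p = 0.0220 in the fit over all probes, exact permutation p = 0.0152). The probe was well above background on all 5 nitrate arrays and on 5 of 6 control arrays, control 1 being the exception, but its spot was found on only 1 of 5 nitrate and 4 of 6 control arrays. The difference was 0.96, 0.17 and 0.48 within slides 1 to 3, and 0.58 with slide as a block. Without nitrate 2 it was 0.49 with a limma p of 0.0521, and with the normexp background correction it was 0.17, below the fold limit. Of the 6 sympathetic neuron markers, Th and Stmn2 were well above background on all 11 arrays but, like Cacnb4, were outside the detection rule, Dbh was not well above background on any array, and Snap25, the only one detected, differed by 0.04. The part of neuronal RNA in the Cacnb4 signal was not tested.

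**Figure D3:**
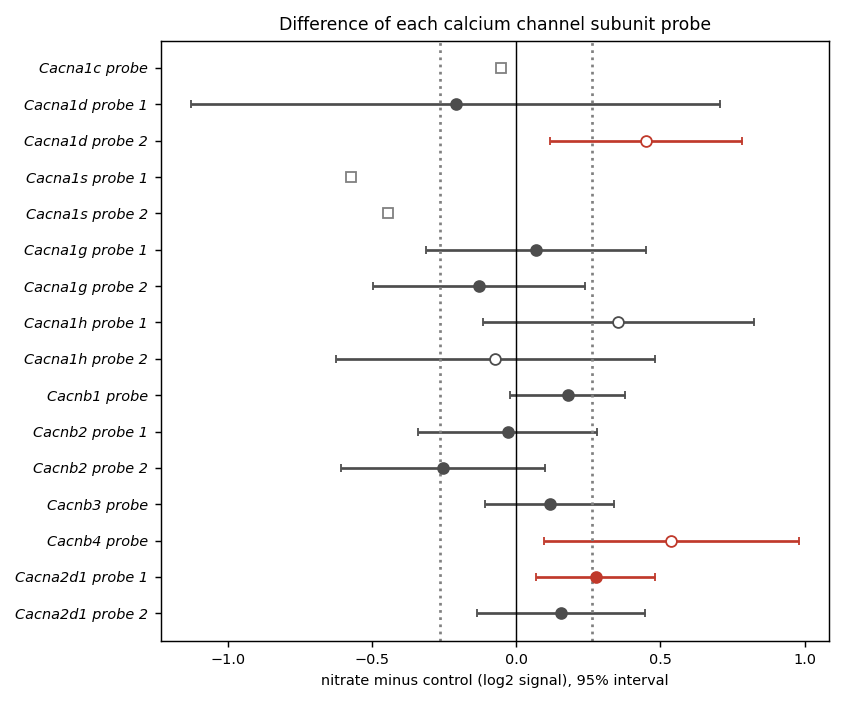
Difference of each of the 16 probes, nitrate minus control in log2 signal (x axis), with its 95% interval from limma (bars). Filled points are detected probes and open points probes outside the detection rule, and grey squares with no interval are the 3 probes that were not well above background on most nitrate arrays (Cacna1c and both of Cacna1s); red marks an unadjusted p under 0.05 with a fold above 1.2, the fold limit being drawn as dotted lines. The red intervals belong to Cacna1d probe 2, Cacnb4 and Cacna2d1 probe 1.

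The detection rule decided how many subunits were called. With the requirement that a spot be found left out, 14 of the 16 probes, of 9 genes, entered the test and 4 were called, where 9.14% of the 26161 probes so detected were called. Cacna1d probe 2 (adjusted p = 0.240), Cacnb4 (adjusted p = 0.274) and Cacna2d1 probe 1 were higher, and Cacna1s probe 1 was lower. Cacna1s probe 1 again entered through the control group alone, where it was high, so its part in the count is a description. Groups did not overlap for 2 of the 14, Cacnb4 and Cacna2d1 probe 1, and for 2.68% of all probes so detected.

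**Figure D4:**
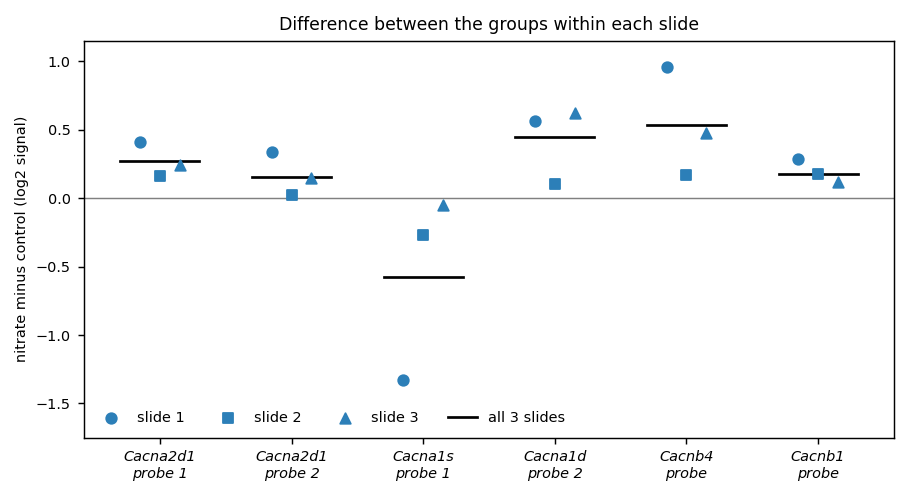
Nitrate minus control difference in log2 signal (y axis) within each of the 3 slides (circle, square and triangle for slides 1 to 3) and over all mice (line) for 6 probes (x axis). Slides 1 and 3 hold 2 mice of each group and slide 2 holds 1 nitrate and 2 control mice. The 6 are both Cacna2d1 probes, Cacna1s probe 1, given as a description, Cacna1d probe 2, Cacnb4 and Cacnb1. They belong to the 8 of the 16 probes whose sign is the same in all 3 slides, and it changes for the other 8. Not drawn of the constant 8 are Cacna1d probe 1 (-0.35, -0.22 and -0.26) and Cacnb2 probe 2 (-0.02, -0.21 and -0.44), both lower in the nitrate group. The difference of Cacna1s probe 1 runs from -1.33 to -0.05.

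Probes of 1 gene were set against each other for the 6 genes with 2 probes. The pair of Cacna1s lay at the background in most nitrate mice and is not read. Of the other 5 pairs, the sign of the difference was the same for Cacnb2 and Cacna2d1 and opposite for Cacna1d, Cacna1g and Cacna1h. The response of the pair did not pass the test of a difference for any of these 5 genes, with exact permutation p-values of 0.169 to 0.442 (adjusted p = 0.516 to 0.530 over 6 pairs, 0 at an unadjusted p under 0.05). Across the 11 mice the probes of Cacna2d1 moved together (Pearson's r = 0.758, permutation p = 0.0102, adjusted p = 0.0612 over 6 pairs; Spearman's rho = 0.588, permutation p = 0.0626, adjusted p = 0.376). Without the 2 mice farthest from the median of probe 1 the r was 0.267, so that the relation rests on those mice, and each slide holds too few mice for a value of its own. For the other pairs, with that of Cacna1s left out, r ran from -0.25 to 0.22, with permutation p-values of at least 0.451.

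**Figure D5:**
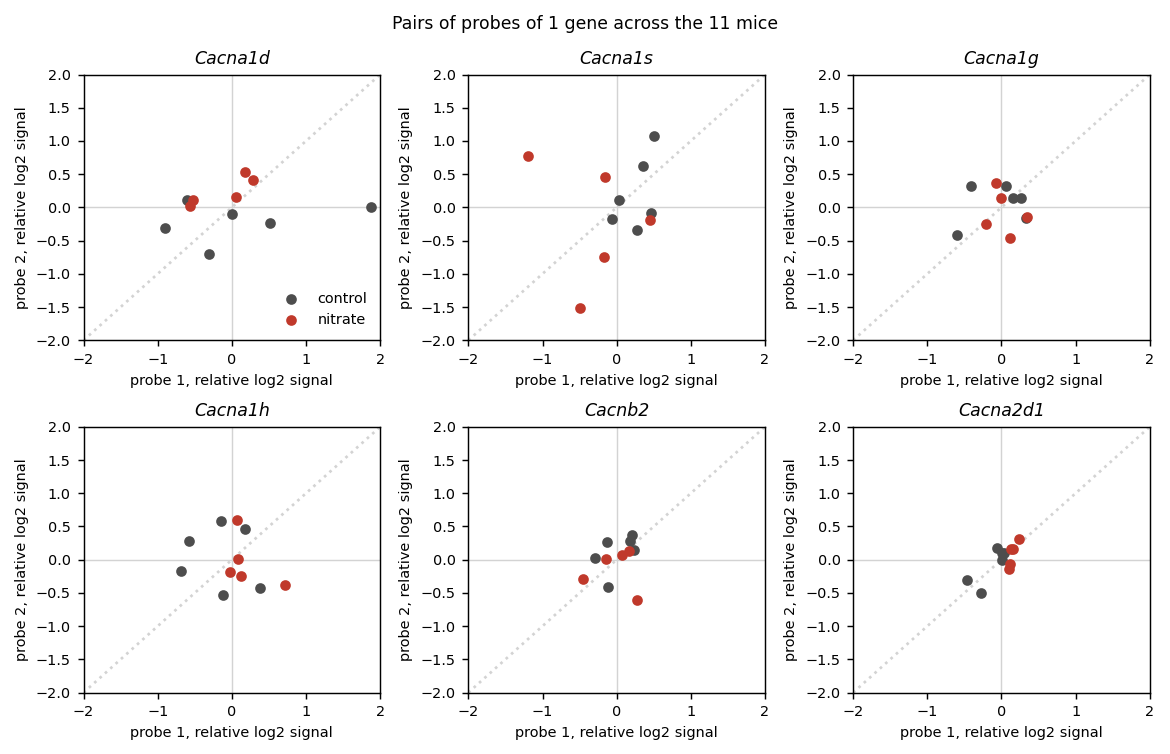
Log2 signal of probe 1 (x axis) and probe 2 (y axis) of each of the 6 genes with 2 probes, as the difference from the mean of the 11 mice, for control (grey) and nitrate (red) mice; the dotted line marks equal deviation. The points of Cacna2d1 follow the line (r = 0.758, or 0.267 without the 2 farthest mice). In the other panels, with that of Cacna1s not read, r lies between -0.25 and 0.22.

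The other subunit genes of the family were mostly outside detection. Of 16 further α1, α2δ and γ genes 5 had a detected probe, 9 had no probe well above background on any array, and 1 was called, where 9.00% of all detected probes were called. The median difference was 0.14 over the 5 against 0.01 over all detected probes. The called gene was Cacng7, a γ subunit that also acts on AMPA-type glutamate receptors, which was 5.98 ± 0.23 (SD, n = 5) in the nitrate group and 5.58 ± 0.34 (SD, n = 6) in the controls. Its difference of 0.40 had a limma p of 0.0280 (adjusted p = 0.306) and an exact permutation p of 0.0541, and its other probe, not found on enough arrays, differed by 0.26 (limma p = 0.113). Cacna1a, the pore of the P/Q-type channel, differed by -0.13, Cacna1i, the third T-type pore, by 0.14, and the α2δ genes Cacna2d2 and Cacna2d3 by 0.16 and -0.09, none of them called.

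Proteins that bind or regulate the channels showed no called gene. Of 15 such genes 11 were detected, 9 of them higher in the nitrate group, with a median difference of 0.04 and limma called 0 (0 at an unadjusted p under 0.05). Ahnak, a giant scaffold that binds β subunits, differed by 0.10 (SE 0.09), Sri, the calcium-binding sorcin, by -0.03 (SE 0.06) and Bin1, which shapes the membrane tubules where L-type channels gather, by 0.02 (SE 0.07).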

How the data were processed

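RNA was measured on one-color arrays. The authors deposited, per array, scanner spot intensities with quality flags from Feature Extraction 10.7.1.1 (background-subtracted, not normalized between arrays) and a table of log2 values. Against the intensities of each array, these deposited log2 values were quantile normalized and centred on the median of the arrays (r of at least 0.9999, column medians -0.0178 to 0.00234), and they served as an alternative.

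Signals were floored at 1, put on the log2 scale and quantile normalized over 11 arrays. Control spots and outlier-flagged spots (107 to 186 of 59305 per array, none of a member) were left out. Groups were compared with limma 3.58.1 (R 4.3.3, lmFit and eBayes) over 23632 detected probes, and probes outside the detection rule took values from a fit over all 55681. Exact permutation tests used all 462 divisions of the mice (SciPy 1.17.1, smallest two-sided p 0.00216), and those of correlations 100000 resamples. Nothing states separate cages or litters, so p-values measure the spread between these mice. Precision is limited by how many arrays there are. The methods name 6 nitrate replicates, while the 11 samples hold 5 nitrate arrays, all of which were analysed.

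Members and lists were chosen with earlier results of these data known. All member probes are named, with the called genes of the lists of other subunits and channel partners or else the 3 with the highest signal, and the defining markers; Lmod1, Atp2a1, Ryr2, the fast myosins, Ryr1, Smtn, Stmn2, Snap25, and other subunits outside this rule were named after their values were seen. Of several detected probes of a list gene, the one of highest mean signal was used. Alternatives were scaling, background correction, an offset, flagged spots, detection, slide, the replicate number and leaving out each mouse. Endothelial, brown adipocyte and Schwann cell markers were also examined: limma called 0 of 6, 1 of 5 (lower) and 1 of 5 (lower) detected genes.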

Additional observations from a re-analysis of the deposited data

Results flagged for a closer look

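In 1 of 32 groups of mice examined, 1 mouse lay far from the others. For Cacna1h probe 1, nitrate 2 read 7.90, and its gap to the next nitrate mouse was 0.797 of the whole range of the nitrate group. Chance alone gives about 1.6 such groups among 32. The probe is outside the detection rule.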

How the results depend on the processing

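With the normexp background correction 0 member probes and 1219 of all detected probes were called, with Cacna1s probe 1 at -0.15 and Cacna2d1 probe 1 at 0.25. Of the probes outside the detection rule, Cacna1d probe 2 (0.25) and Cacnb4 (0.17) were then also within the fold limit. The cause was not tested. Without the found requirement, or without any detection filter, 4 member probes were called and 2 did not overlap, because more probes enter. Cacna1s probe 1 is among the 4 as a description only. Without any filter 3224 of all probes were called. With detection required on all 11 arrays 1 was called, since Cacna1s probe 1 no longer enters, and with the mean of the detected probes of each gene and the exact permutation test 1 gene passed, Cacna1s, with its single probe that entered through the control group alone. Leaving out 1 mouse gave 0 to 2 member probes called, 1 to 2 without overlap and 1596 to 2424 called of all probes. The range over left-out mice was -0.76 to -0.36 for Cacna1s probe 1, 0.21 to 0.31 for Cacna2d1 probe 1, 0.39 to 0.61 for Cacnb4 and 0.35 to 0.51 for Cacna1d probe 2. Signs turned among uncalled probes when 1 mouse was left out, with ranges of -0.23 to 0.16 for Cacna1c (at the background, so its sign is not read), -0.41 to 0.15 for Cacna1d probe 1, -0.046 to 0.14 for Cacna1g probe 1, -0.23 to 0.037 for Cacna1h probe 2 and -0.10 to 0.080 for Cacnb2 probe 1. Without control 3 Cacna1h probe 1 (0.46) and Cacnb2 probe 2 (-0.36) passed both limits, while they came to 0.22 without nitrate 2 and to -0.14 without nitrate 5. With slide as a block Cacna1h probe 2 was 0.028. The other scalings, the deposited log2 table, the offset, kept flagged spots and the trended prior each gave 2 member probes called. The 6 probe pairs gave 0 differences under every setting run.

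Samples of 1 replicate number deviated together with r of 0.010, 0.117, -0.137, -0.132 and 0.180. Samples of unlike numbers were not set against each other, so these values do not settle whether the numbers pair the mice. The fit with the replicate block called 2 member probes and 2433 of all detected probes, and Cacna1h probe 2 turned to 0.037.

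Spots near the background limit what can be read for Cacna1c, Cacna1s, Cacnb4 and Cacna1h probe 2.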
